A study of Mus musculus with 48 samples.

Results

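The genes described here encode the enzymes that make and conjugate bile acids in hepatocytes, the pumps that move bile acids out of and into these cells, and the nuclear receptors that set their expression. They are Cyp7a1, Cyp8b1, Cyp27a1, Cyp7b1, Baat, Slc27a5, Abcb11, Slc10a1, Nr1h4 and Nr0b2, 10 genes picked by symbol, of 20622 genes with cytoplasmic RNA values and 16269 with ribosome-protected fragments. All 10 had both kinds of value in each of the 24 livers. Ribosome-protected fragments (RPFs) are the stretches of mRNA shielded by a ribosome at lysis, so their number follows how much of a coding sequence is being translated. Cytoplasmic RNA was sequenced from the same lysate. The livers came from male mice 2-4 months old, and each mouse had received AAV8.TBG.Cre, a virus that carries the Cre recombinase under the hepatocyte TBG promoter, so the controls carry the virus too. Its labelled dose was 2e+11 genome copies in all groups, given per mouse in 1 label field and per ml in another. The 4 genotypes were Wild-type (WT), Ctnnb1ex3/+ (B), R26-LSL-MYC (M) and Ctnnb1ex3/+; R26-LSL-MYC (BM). In B, Cre removes exon 3 of 1 allele of the gene for β-catenin, which leaves a protein that escapes degradation. In M, Cre releases a MYC transgene at Rosa26, and BM carries both. Livers were taken 4 or 10 days after the virus, with 3 mice for each genotype and day. These are whole livers in which other cells than hepatocytes keep their alleles intact, and in bulk tissue fewer cells of a type and less RNA per cell cannot be told apart.

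Bile acids are made from cholesterol in hepatocytes. In the classical pathway CYP7A1 adds the first hydroxyl group and sets the rate, and CYP8B1 adds the 12α-hydroxyl group that separates cholic acid from chenodeoxycholic acid and its derivatives. In the alternative pathway CYP27A1 oxidises the side chain in mitochondria and CYP7B1 then hydroxylates the resulting oxysterols. SLC27A5 couples the bile acid to coenzyme A and BAAT joins it to taurine or glycine. ABCB11, the bile salt export pump, secretes conjugated bile acids into the canaliculus, and SLC10A1 (NTCP) takes them back up from the sinusoidal blood. The bile acid receptor FXR (Nr1h4) induces SHP (Nr0b2), an orphan receptor without a DNA-binding domain that represses Cyp7a1 and Cyp8b1. Hepatocytes next to the central vein (zone 3), where WNT signalling is high, are the main site of Cyp7a1 expression, whereas Cyp8b1 is low in the cells directly around that vein.

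RPF libraries held 9742197 to 14380713 counts (median 12503695) and RNA libraries 3254141 to 6540116 (median 5077217). Values per mouse are in CPM, counts scaled to a common library size with TMM factors, which align libraries on the bulk of genes; CPM is not divided by length and is compared only within a gene or a fixed list of genes. As a check of the labels, Myc RPFs lay at 2.43 to 35.3 CPM in the 12 mice without R26-LSL-MYC and at 43.6 to 164 CPM in the 12 with it, with no overlap. Myc RNA ran from 22.1 to 48.3 CPM and from 19.6 to 53.0 CPM in these groups, which overlap. Reads were counted on mouse Myc, and how many of them come from the transgene was not tested. These values are therefore no measure of MYC translation. Counts over the whole of Ctnnb1 do not show the loss of 1 exon. Of 10 zone 3 hepatocyte markers, 9 were called higher in B and 9 in BM against WT at day 4, where 6.21% and 26.2% of all genes were. One liver stood apart from its group: in BM mouse 1 of day 10, 1630 of 12000 genes lay more than 2-fold from the mean of the other BM livers in RPFs and 1142 of 12040 in RNA, and the SD of these log2 differences was 0.708 and 0.62, against at most 0.48 and 0.45 in any other RPF and RNA library. RPF values of the 10 bile acid genes at day 10 are given per mouse below, and where leaving out that mouse changes a call the value without it follows.

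Genes were tested by genotype against the WT mice of the same day with edgeR's quasi-likelihood test, adjusted for all genes tested, and a gene is called where the adjusted p is under 0.1. The comparisons of 1 day share their WT mice. Of the 10 bile acid genes, 3 (2 higher, 1 lower) were called in B at day 4 in RPFs and 3 (2 higher, 1 lower) in RNA, where 12.5% and 8.14% of all genes tested were called. In M at day 4 the counts were 3 (1 higher, 2 lower) in RPFs and 3 (1 higher, 2 lower) in RNA, against 33.3% and 23.7% of all genes, so the share of the bile acid genes was near the background. In BM at day 4 the counts were 9 (1 higher, 8 lower) in RPFs and 9 (1 higher, 8 lower) in RNA, against 50.9% and 41.9%. With all 8 groups in 1 fit the RPF and RNA counts at day 4 were 2 and 2 in B, 1 and 1 in M and 7 and 6 in BM. In M the gene that kept its call was Cyp27a1 in RPFs and Baat in RNA, where 2388 of 12000 and 1711 of 12040 genes in all were called. The median log2 change of the 10 genes in RPFs in BM at day 4 was -0.47, that of all genes -0.000724. At day 10, 6 (1 higher, 5 lower) were called in B in RPFs and 7 (2 higher, 5 lower) in RNA, against 25.2% and 15.6% of all genes, with a median log2 RPF change of -0.53 over the 10 genes and 0.01 over all. M at day 10 had 1 (0 higher, 1 lower) in RPFs and 0 in RNA, against 19.4% and 15.7%; in RNA 2 of the 10 had an unadjusted p under 0.05 by edgeR, and DESeq2 called 1, no filter 2 and all 8 groups in 1 fit 2. BM at day 10 had 7 (1 higher, 6 lower) in RPFs and 9 (1 higher, 8 lower) in RNA, against 46.8% and 45.7%, and without BM mouse 1 all 10 were called in RPFs, where 7611 of 11475 genes (66.3%) were called instead of 5309. The median log2 change in BM at day 10 was -1.07 in RPFs and -1.38 in RNA, against 0.03 and 0.03 over all genes.

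**Figure D1:**
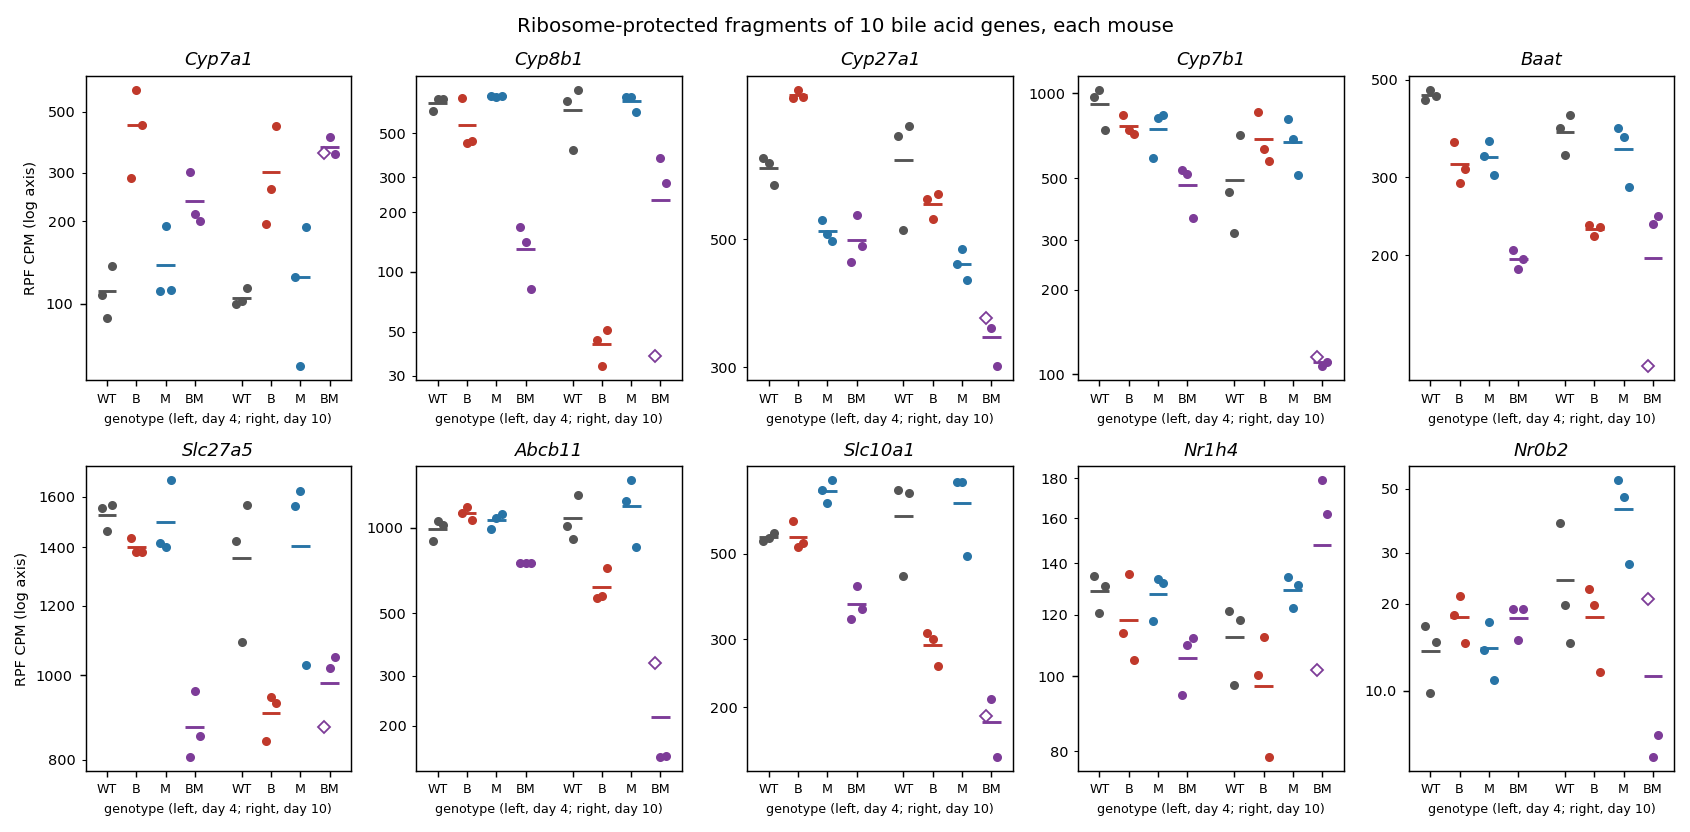
RPF levels of the 10 bile acid genes in each liver, in CPM on a log axis, by genotype at day 4 and day 10 (points, 3 mice per group; bars, group means). Cyp7a1 is higher in B and BM than in WT at both days, Cyp8b1 falls to 33.5 to 50.9 in B at day 10, and Cyp7b1 and Abcb11 are lowest in BM at day 10.

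Within WT livers the genes spanned a wide range of RNA levels. In TPM, RSEM's measure of transcript abundance, which divides by transcript length and can be compared between genes, the day 4 WT means were 416 ± 16.9 (SD, n = 3) for Slc27a5, 359 ± 30.7 for Cyp7b1, 355 ± 36.9 for Slc10a1, 252 ± 19.3 for Abcb11 and 230.0 ± 35.3 for Baat. Cyp8b1 stood at 198 ± 16.4, Cyp27a1 at 159 ± 6.41, Nr1h4 at 55.8 ± 4.95, Cyp7a1 at 39.5 ± 16.7 and Nr0b2 at 9.81 ± 1.68 TPM. Slc27a5 was thus the most abundant RNA and Nr0b2 the least. Across the 8 groups ordered by mean RPF CPM, the livers of neighbouring groups stood apart in 4 of 7 steps for Cyp27a1, 3 for Abcb11 and Slc10a1, 2 for Cyp8b1 and Baat, 1 for Cyp7a1, Cyp7b1 and Slc27a5, and 0 for Nr1h4 and Nr0b2. All other neighbours overlapped.

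Cyp7a1, the rate-limiting enzyme of the classical pathway, is ENSMUSG00000028240, chr4:6265612-6275633, minus strand in GRCm39. At day 4 its RPF CPM was 108, 89.0 and 137 in WT, 288, 603 and 449 in B, 111, 192 and 113 in M and 302, 212 and 199.6 in BM. At day 10 it was 99.7, 102 and 114 in WT, 196, 263 and 446 in B, 126, 59.4 and 190.3 in M and 354, 407 and 353 in BM. Every B and BM liver stood above every WT liver of its day, and M overlapped WT at both days. In RPFs Cyp7a1 rose 3.96-fold in B at day 4 (log2 1.99 ± 0.24, adjusted p = 0.000599) and 2.17-fold in BM (log2 1.12 ± 0.17, adjusted p = 0.000351). At day 10 it rose 2.84-fold in B (log2 1.51 ± 0.27, adjusted p = 0.00603) and 3.49-fold in BM (log2 1.80 ± 0.15, adjusted p = 0.000267). In RNA the log2 changes were 1.98 ± 0.29 (adjusted p = 0.00127) in B and 1.23 ± 0.22 (adjusted p = 0.000607) in BM at day 4. At day 10 they were 1.68 ± 0.28 (adjusted p = 0.00254) in B and 1.88 ± 0.15 (adjusted p = 5.97e-05) in BM. These 8 calls were kept with each mouse left out in turn. Neither measure was called in M, where the log2 RPF change was 0.35 ± 0.22 (adjusted p = 0.276) at day 4 and 0.24 ± 0.34 (adjusted p = 0.674) at day 10. Cyp7a1 was the only one of the 10 genes called higher in both B and BM at both days. Cyp7a1 RNA in M at day 4 was called with no filter on low counts (0.31, adjusted p = 0.0363).

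Cyp8b1, the 12α-hydroxylase, is ENSMUSG00000050445, chr9:121743422-121745371, minus strand. Its promoter is shown because this gene had the largest fall of the set in any comparison with WT; capitals mark TATAAA, which stands 31 bases before the transcription start (RefSeq, GRCm38.p6, chr9:121916256-121916555, minus strand, 5′ to 3′).
Cyp8b1 promoter: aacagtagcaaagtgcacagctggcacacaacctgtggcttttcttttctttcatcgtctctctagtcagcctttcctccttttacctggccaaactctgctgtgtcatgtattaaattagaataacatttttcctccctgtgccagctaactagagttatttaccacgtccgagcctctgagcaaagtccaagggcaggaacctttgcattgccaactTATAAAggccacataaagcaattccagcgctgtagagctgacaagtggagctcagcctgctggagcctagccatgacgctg
Promoters were searched on both strands from 250 bases before to 50 bases after the start, with no overlap allowed between motifs. TATAAA, the TATA box, was held by 13.6% of 32851 mouse promoters of this length. The nuclear receptor half-site AGGTCA was held by 16.3% of them. The TCF/LEF core CTTTGA was held by 16%. A match is a description of the letters and not a binding site.

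At day 4 the RPF CPM of Cyp8b1 was 642, 743 and 741 in WT, 753, 445 and 456 in B, 764, 762 and 772 in M and 168, 141 and 81.5 in BM. The day 10 values were 722, 410.0 and 827 in WT, 45.2, 33.5 and 50.9 in B, 764, 759 and 641 in M and 37.5, 374 and 282 in BM. The M livers lay within or close to the WT range, the B livers of day 10 lay below every other liver but BM mouse 1, and the BM livers were low at both days. Cyp8b1 fell 5.36-fold in RPFs of BM at day 4 (log2 -2.42 ± 0.21, adjusted p = 5.41e-06) and 6.01-fold in RNA (log2 -2.59 ± 0.19, adjusted p = 1.92e-07). In B at day 4 it was not called (log2 -0.37 ± 0.18, adjusted p = 0.261 in RPFs), but without B mouse 1, the highest of that group, it was (-0.66, adjusted p = 0.00174 in RPFs; -0.75, adjusted p = 0.000617 in RNA). By day 10 it had fallen 15.2-fold in B in RPFs (log2 -3.93 ± 0.28, adjusted p = 9.24e-05) and 16.5-fold in RNA (log2 -4.04 ± 0.30, adjusted p = 1.24e-05). In RNA the 3 B livers of day 10 held 26.1, 14.6 and 22.0 CPM and the WT livers 385, 205 and 444 CPM.

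The day 10 BM livers were split for Cyp8b1: mouse 1 held 37.5 RPF CPM, in the range of the B livers, and mice 2 and 3 held 374 and 282, near the lowest WT liver (410.0). Its RNA followed, at 17.3, 161 and 97.7 CPM. With all 3 mice the RPF change was not called (log2 -1.51 ± 0.69, adjusted p = 0.122) and the RNA change was (-1.92 ± 0.62, adjusted p = 0.0398). Without BM mouse 1 both were called with a smaller change (-1.003, adjusted p = 0.00653 in RPFs; -1.42, adjusted p = 0.00191 in RNA), and without BM mouse 2 the RPF change was -2.04 (adjusted p = 0.0984). The RNA call was lost without WT mouse 1 or WT mouse 3 (-1.86 to -1.71, adjusted p from 0.106 to 0.119). Without BM mouse 2 the RNA change was -2.60 (adjusted p = 0.0219). Cyp8b1 RNA in B at day 4 was called with no filter on low counts (-0.43, adjusted p = 0.0387). Cyp8b1 RPFs in BM at day 10 were called with all 8 groups in 1 fit (-1.50, adjusted p = 0.0104).

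Cyp27a1 (sterol 27-hydroxylase, ENSMUSG00000026170, chr1:74752314-74777056, plus strand) moved in opposite directions by genotype. Its RPF CPM at day 4 was 692, 679 and 622 in WT, 881, 909 and 882 in B, 541, 511 and 498 in M and 457, 550.3 and 488 in BM. By day 10 it stood at 757, 519.8 and 786 in WT, 588, 542 and 599.9 in B, 454, 481 and 424 in M and 365, 351 and 301 in BM. All B livers of day 4 stood above all WT livers, and all M and BM livers of day 4 stood below all WT livers. RPFs of Cyp27a1 rose 1.33-fold in B at day 4 (log2 0.41 ± 0.08, adjusted p = 0.0107) and fell in M (log2 -0.33 ± 0.07, adjusted p = 0.00859) and in BM (log2 -0.39 ± 0.09, adjusted p = 0.00568). At day 10 they fell 1.52-fold in M (log2 -0.60 ± 0.17, adjusted p = 0.0523) and 2.05-fold in BM (log2 -1.03 ± 0.21, adjusted p = 0.00746), whereas B was not called (log2 -0.27 ± 0.16, adjusted p = 0.301). The M call of day 10 was lost without M mouse 1, WT mouse 1 or WT mouse 3 (-0.61 to -0.49, adjusted p from 0.148 to 0.166). The B value of day 10 was called without WT mouse 2, the lowest WT liver for this gene (-0.44, adjusted p = 0.0424).

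In RNA, Cyp27a1 rose in B at day 4 (log2 0.47 ± 0.10, adjusted p = 0.0125) and was lower in BM at day 4 (log2 -0.28 ± 0.11, adjusted p = 0.0634) and day 10 (log2 -0.58 ± 0.18, adjusted p = 0.0353). The BM call of day 4 was lost without BM mouse 1, BM mouse 3, WT mouse 1 or WT mouse 2 (-0.26 to -0.21, adjusted p from 0.13 to 0.228), and that of day 10 without WT mouse 1 or WT mouse 3 (-0.53 to -0.52, adjusted p from 0.116 to 0.128). In M the RNA change was -0.23 ± 0.11 (adjusted p = 0.166) at day 4 and -0.45 ± 0.17 (adjusted p = 0.113) at day 10; the latter was called without WT mouse 2 (-0.61, adjusted p = 0.0302). Cyp27a1 RNA in B at day 4 was not called with all 8 groups in 1 fit (0.48, adjusted p = 0.131). Cyp27a1 RNA in BM at day 4 was not called with all 8 groups in 1 fit (-0.28, adjusted p = 0.207). Cyp27a1 RNA in M at day 10 was called by DESeq2, with no filter on low counts and with all 8 groups in 1 fit (-0.46 to -0.45, adjusted p from 0.0458 to 0.0843).

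Cyp7b1, the oxysterol 7α-hydroxylase (ENSMUSG00000039519, chr3:18117411-18297740, minus strand), had its lowest level in BM at day 10. Its RPF CPM at day 4 was 975, 1032 and 741 in WT, 838, 739.5 and 718 in B, 588, 819.8 and 838 in M and 535, 519 and 362 in BM. Its day 10 CPM was 448, 318 and 714 in WT, 861, 632 and 575 in B, 812, 688 and 511 in M and 115, 107 and 110.3 in BM. The 3 BM livers of day 10 lay between 107 and 115 and did not overlap any other group, and the WT livers of day 10 were spread from 318 to 714. Cyp7b1 fell 1.91-fold in BM at day 4 in RPFs (log2 -0.93 ± 0.16, adjusted p = 0.000588) and 4.5-fold at day 10 (log2 -2.17 ± 0.29, adjusted p = 0.00164). In RNA it fell by 0.86 on the log2 scale at day 4 (adjusted p = 0.000228) and 4.23-fold at day 10 (log2 -2.08 ± 0.24, adjusted p = 0.000408). These 4 BM calls were kept with each mouse left out.

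Cyp7b1 was not called in RPFs in B or M. In B at day 4 its log2 RPF change was -0.27 ± 0.12 (adjusted p = 0.235), and it was called lower without WT mouse 3 (-0.41, adjusted p = 0.0702). The B change at day 10 was 0.46 ± 0.27 (adjusted p = 0.275), and it was called higher without WT mouse 3 (0.82, adjusted p = 0.0637). Its RNA was higher in B at day 10 (log2 0.72 ± 0.25, adjusted p = 0.0888), a call lost without B mouse 1, B mouse 2, WT mouse 1 or WT mouse 2 (0.49 to 0.76, adjusted p from 0.174 to 0.257). Its RNA was lower in M at day 4 (log2 -0.37 ± 0.13, adjusted p = 0.06), a call lost without M mouse 1, M mouse 2, WT mouse 1 or WT mouse 2 (-0.38 to -0.26, adjusted p from 0.102 to 0.258). In M at day 10 the RNA change was 0.32 ± 0.22 (adjusted p = 0.412), and 0.63 (adjusted p = 0.0879) without WT mouse 3. Cyp7b1 RNA in M at day 4 was not called with all 8 groups in 1 fit (-0.38, adjusted p = 0.27).

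Baat, the N-acyltransferase that conjugates bile acids (ENSMUSG00000039653, chr4:49489289-49506563, minus strand), was lower than WT in most mutant groups. Its RPF CPM at day 4 was 448, 474 and 458 in WT, 362, 291 and 313 in B, 334, 363 and 303 in M and 205, 186 and 196 in BM. In the livers of day 10 it was 388, 336 and 416 in WT, 234, 221 and 232 in B, 388, 371 and 286 in M and 112, 235 and 245 in BM. No B, M or BM liver of day 4 reached the lowest WT liver, and at day 10 the B and BM livers lay below all WT livers while M overlapped them. In RPFs it fell 1.44-fold in B (log2 -0.53 ± 0.10, adjusted p = 0.0064), 1.35-fold in M (log2 -0.43 ± 0.08, adjusted p = 0.00391) and 2.31-fold in BM (log2 -1.21 ± 0.08, adjusted p = 5.96e-07) at day 4. At day 10 it fell 1.68-fold in B (log2 -0.75 ± 0.12, adjusted p = 0.00356) and 1.95-fold in BM (log2 -0.96 ± 0.29, adjusted p = 0.0363). The BM call of day 10 was lost without WT mouse 1 or WT mouse 3 (-0.95 to -0.90, adjusted p from 0.106 to 0.117). Baat RNA fell in the same 5 comparisons, with log2 changes of -0.47 ± 0.10 (adjusted p = 0.0191) in B at day 4, -0.39 ± 0.10 (adjusted p = 0.0175) in M at day 4, -1.06 ± 0.11 (adjusted p = 4.30e-06) in BM at day 4, -0.70 ± 0.15 (adjusted p = 0.0103) in B at day 10 and -1.69 ± 0.16 (adjusted p = 0.000125) in BM at day 10. The RNA call in B at day 4 was lost without B mouse 2 (-0.42, adjusted p = 0.105). Baat RPFs in B at day 4 were not called with all 8 groups in 1 fit (-0.52, adjusted p = 0.178). Baat RPFs in M at day 4 were not called with all 8 groups in 1 fit (-0.46, adjusted p = 0.111).

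Slc27a5, the bile acyl-CoA synthetase (ENSMUSG00000030382, chr7:12722273-12732137, minus strand), had an RPF CPM at day 4 of 1551, 1462 and 1563 in WT, 1433, 1383 and 1383 in B, 1416, 1400.0 and 1670.0 in M and 807, 959 and 852 in BM. At day 10 it was 1423, 1091 and 1565 in WT, 840.0, 944 and 930.1 in B, 1562, 1624 and 1028 in M and 871, 1019 and 1048 in BM. The B and M livers of day 4 overlapped WT or lay just under it, whereas the BM livers of both days and the B livers of day 10 lay below all WT livers. RPFs fell 1.72-fold in BM at day 4 (log2 -0.78 ± 0.09, adjusted p = 5.24e-05), 1.52-fold in B at day 10 (log2 -0.60 ± 0.15, adjusted p = 0.0266) and 1.4-fold in BM at day 10 (log2 -0.49 ± 0.20, adjusted p = 0.0887). The B call was lost without WT mouse 3 (-0.49, adjusted p = 0.101) and the BM call of day 10 without BM mouse 2, BM mouse 3, WT mouse 1 or WT mouse 3 (-0.54 to -0.38, adjusted p from 0.147 to 0.272). In RNA the log2 change was -0.96 ± 0.11 (adjusted p = 1.07e-05) in BM at day 4, -0.65 ± 0.18 (adjusted p = 0.0414) in B at day 10 and -1.001 ± 0.19 (adjusted p = 0.00394) in BM at day 10. The B call in RNA was lost without B mouse 2, WT mouse 1 or WT mouse 3 (-0.64 to -0.56, adjusted p from 0.139 to 0.187). RPFs were counted on 1 transcript per gene, which carried 59.43% of the TPM of Slc27a5, 51.62% of that of Abcb11, 72.83% of that of Slc10a1, 50.22% of that of Nr1h4 and 100% for the other 6 genes. Slc27a5 RPFs in BM at day 10 were not called with no filter on low counts (-0.49, adjusted p = 0.109).

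Abcb11, the bile salt export pump (ENSMUSG00000027048, chr2:69068544-69173315, minus strand), was reduced most in BM at day 10. Its promoter is shown with the pump's values because it held 2 of the searched motifs, in capitals: AGGTCA on the opposite strand 56 bases before the start (read as TGACCT) and CTTTGA 121 bases before it (RefSeq, GRCm38.p6, chr2:69342567-69342866, minus strand).
Abcb11 promoter: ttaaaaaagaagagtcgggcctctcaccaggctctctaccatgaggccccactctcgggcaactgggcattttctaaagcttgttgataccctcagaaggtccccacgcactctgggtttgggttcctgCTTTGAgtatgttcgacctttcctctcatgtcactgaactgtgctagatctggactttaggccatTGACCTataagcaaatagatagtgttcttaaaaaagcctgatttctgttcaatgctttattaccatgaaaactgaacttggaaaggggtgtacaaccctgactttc
The RPF CPM of Abcb11 at day 4 was 900.3, 1056 and 1025 in WT, 1131, 1180.0 and 1063 in B, 991, 1082 and 1116 in M and 751, 749.8 and 751 in BM. The day 10 values were 1015, 916 and 1305 in WT, 565, 573 and 719.7 in B, 1246, 1471 and 858 in M and 333, 156 and 157 in BM. The BM livers of day 10 were the lowest, with mouse 1 at 333 and mice 2 and 3 at 156 and 157. The BM livers of day 4 lay between 749.8 and 751, below all WT livers, and the B livers went from above all WT livers at day 4 to below all of them at day 10. Abcb11 fell 1.3-fold in BM at day 4 (log2 -0.38 ± 0.09, adjusted p = 0.00394), 1.76-fold in B at day 10 (log2 -0.81 ± 0.17, adjusted p = 0.0116) and 5.07-fold in BM at day 10 (log2 -2.34 ± 0.34, adjusted p = 0.00213). Without BM mouse 1 the last value was -2.80 (adjusted p = 5.87e-07). In RNA the log2 change was -0.57 ± 0.10 (adjusted p = 0.000626) in BM at day 4 and -0.74 ± 0.16 (adjusted p = 0.0114) in B at day 10. In BM at day 10 the RNA stood at 429.9, 113 and 124 CPM against 1425, 1116 and 1338 in WT, a 5.8-fold fall (log2 -2.54 ± 0.49, adjusted p = 0.00413; -3.46, adjusted p = 4.61e-08 without BM mouse 1). M was not called, with log2 RPF changes of 0.13 ± 0.08 (adjusted p = 0.3) at day 4 and 0.14 ± 0.22 (adjusted p = 0.706) at day 10. Abcb11 RPFs in BM at day 4 were not called with all 8 groups in 1 fit (-0.40, adjusted p = 0.183). Abcb11 RNA in BM at day 4 was not called with all 8 groups in 1 fit (-0.57, adjusted p = 0.143).

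Slc10a1, the sodium-dependent uptake carrier NTCP (ENSMUSG00000021135, chr12:80996372-81015479, minus strand), fell with Abcb11 in B at day 10 and in BM on both days, and rose in M at day 4. RefSeq lists 2 starts for it, and the promoter that held AGGTCA, 87 bases before the start and in capitals, is shown to set beside that of Abcb11 (GRCm38.p6, chr12:80968030-80968329, minus strand). The promoter of the other start held only TATAAA, on the opposite strand 128 bases before it. AGGTCA also stood in the Nr1h4 promoter, on the opposite strand 214 bases before the start. TATAAA stood in that of Nr0b2, 28 bases before it.
Slc10a1 promoter: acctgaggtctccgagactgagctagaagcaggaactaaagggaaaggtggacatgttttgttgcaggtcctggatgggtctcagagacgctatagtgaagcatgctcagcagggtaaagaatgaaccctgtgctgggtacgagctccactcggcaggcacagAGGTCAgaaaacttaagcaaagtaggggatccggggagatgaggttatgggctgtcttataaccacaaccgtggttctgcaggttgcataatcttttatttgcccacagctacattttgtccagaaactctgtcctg
At day 4 the RPF CPM of Slc10a1 was 539, 551 and 565 in WT, 606, 519 and 534 in B, 730.5, 677 and 775 in M and 338, 413 and 359 in BM. By day 10 it stood at 729, 437 and 718 in WT, 312, 301 and 256 in B, 768, 766 and 492 in M and 189, 209.9 and 149 in BM. All M livers of day 4 stood above all WT livers. The B and BM livers of day 10 stood below the lowest WT liver. RPFs rose 1.35-fold in M at day 4 (log2 0.43 ± 0.07, adjusted p = 0.00235) and fell 1.47-fold in BM (log2 -0.55 ± 0.09, adjusted p = 0.000588). At day 10 they fell 2.19-fold in B (log2 -1.13 ± 0.20, adjusted p = 0.00518) and 3.47-fold in BM (log2 -1.80 ± 0.25, adjusted p = 0.00189). RNA changed likewise, by 0.37 ± 0.09 (adjusted p = 0.0121) on the log2 scale in M and -0.60 ± 0.11 (adjusted p = 0.000647) in BM at day 4, and by -1.12 ± 0.22 (adjusted p = 0.00727) in B and -1.84 ± 0.25 (adjusted p = 0.000852) in BM at day 10. None of these 8 calls was lost when any 1 mouse was left out. At day 10 M was not called (log2 RPF change 0.10 ± 0.24, adjusted p = 0.815). Slc10a1 RPFs in M at day 4 were not called with all 8 groups in 1 fit (0.40, adjusted p = 0.152). Slc10a1 RNA in M at day 4 was not called with all 8 groups in 1 fit (0.37, adjusted p = 0.258).

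Nr1h4, which encodes FXR (ENSMUSG00000047638, chr10:89289742-89369497, minus strand), had an RPF CPM at day 4 of 135, 121 and 131 in WT, 114, 136 and 105 in B, 118, 134 and 132 in M and 94.6, 109.7 and 112 in BM. Its day 10 CPM was 121, 97.6 and 118 in WT, 100.3, 112 and 78.8 in B, 134, 122 and 131 in M and 102, 179 and 162 in BM. No neighbouring groups stood apart when the 8 groups were ordered by their means. RPFs and RNA of Nr1h4 were called lower against WT in BM at day 4 only (log2 -0.26 ± 0.09, adjusted p = 0.0372 in RPFs and -0.23 ± 0.10, adjusted p = 0.0821 in RNA). The RPF call was lost without BM mouse 1 or WT mouse 1 (-0.23 to -0.18, adjusted p from 0.12 to 0.121). The RNA call was lost without BM mouse 1, BM mouse 3, WT mouse 1 or WT mouse 3 (-0.26 to -0.16, adjusted p from 0.114 to 0.283). In BM at day 10, mice 2 and 3 stood above all WT livers and mouse 1 among them. The RPF change of 0.38 ± 0.23 (adjusted p = 0.223) became a call without BM mouse 1 (0.59, adjusted p = 0.00248). Nr1h4 RPFs in BM at day 4 were not called with all 8 groups in 1 fit (-0.29, adjusted p = 0.196). Nr1h4 RNA in BM at day 4 was not called by DESeq2, with no filter on low counts, with all 8 groups in 1 fit or with the RNA of the counted transcript (-0.23 to -0.20, adjusted p from 0.173 to 0.207). Nr1h4 RPFs in BM at day 10 were called with all 8 groups in 1 fit (0.39, adjusted p = 0.0481).

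Nr0b2, which encodes SHP (ENSMUSG00000037583, chr4:133280678-133283847, plus strand), was the least abundant of the 10. Its RPF CPM at day 4 was 16.7, 9.83 and 14.7 in WT, 18.3, 21.3 and 14.6 in B, 13.9, 17.2 and 10.9 in M and 19.2, 14.9 and 19.2 in BM. In the livers of day 10 it was 38.2, 19.7 and 14.7 in WT, 22.4, 19.8 and 11.6 in B, 53.6, 46.8 and 27.5 in M and 20.8, 5.90 and 7.02 in BM. Livers of 1 group were spread widely, from 14.7 to 38.2 in WT at day 10, and most groups overlapped. Nr0b2 was not called in RPFs in any genotype against WT. Its highest levels were in M at day 10 (log2 0.80 ± 0.35, adjusted p = 0.177 in RPFs and 0.95 ± 0.36, adjusted p = 0.129 in RNA), and both measures were called without M mouse 3 or without WT mouse 1 (RPF log2 1.04, adjusted p = 0.0455 and 1.31, adjusted p = 0.0539; RNA log2 1.29, adjusted p = 0.0069 and 1.40, adjusted p = 0.0625). Its RNA was lower in BM at day 10 (log2 -1.07 ± 0.40, adjusted p = 0.066), a call lost without BM mouse 2, BM mouse 3 or WT mouse 1 (-0.94 to -0.66, adjusted p from 0.159 to 0.226). RPFs of Nr0b2 in these livers were 20.8, 5.90 and 7.02 CPM, a log2 change of -1.11 ± 0.53 (adjusted p = 0.133) that was called without BM mouse 1 (-1.93, adjusted p = 0.000825). The log2 RPF change in BM at day 4 was 0.38 ± 0.18 (adjusted p = 0.106), called without BM mouse 2 or WT mouse 1 (0.49 to 0.56, adjusted p from 0.0431 to 0.0615). Nr0b2 RPFs in BM at day 4 were called with no filter on low counts (0.40, adjusted p = 0.075). Nr0b2 RNA in M at day 10 was called with no filter on low counts and with all 8 groups in 1 fit (0.95 to 0.96, adjusted p from 0.00968 to 0.0916). Nr0b2 RPFs in BM at day 10 were called by DESeq2 and with all 8 groups in 1 fit (-1.13 to -1.09, adjusted p from 0.0262 to 0.0673).

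**Figure D2:**
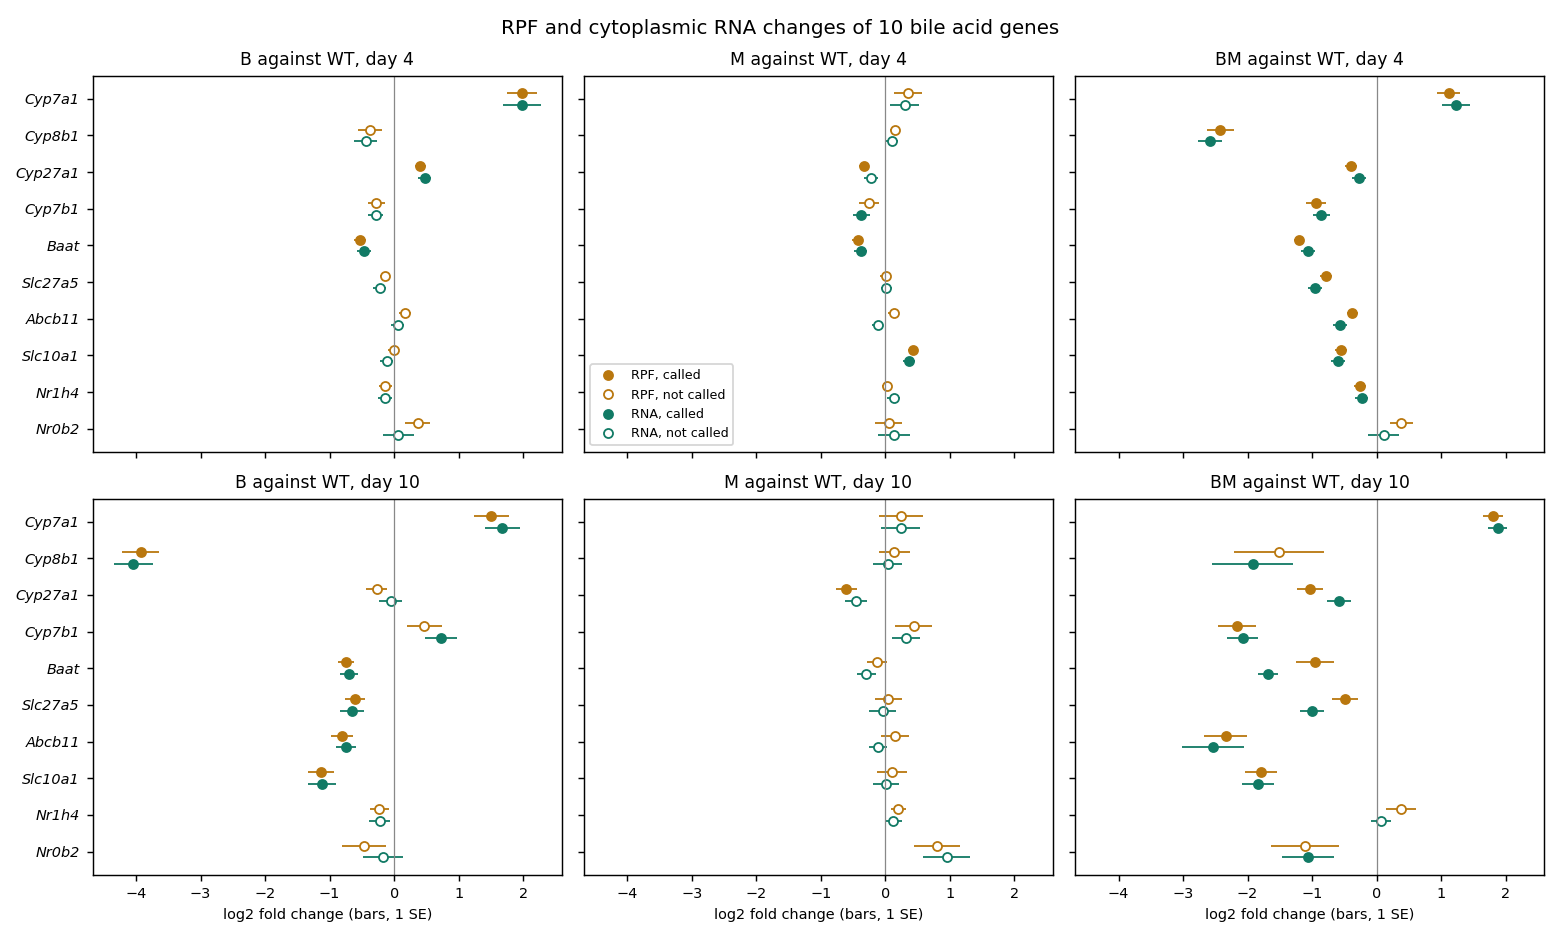
Log2 fold change of the 10 bile acid genes against WT of the same day, in RPFs and in cytoplasmic RNA, for B, M and BM (points, edgeR estimates from 3 against 3 mice; bars, 1 SE; filled, adjusted p under 0.1). Cyp7a1 lies right of 0 in B and BM at both days, and Cyp8b1 in B at day 10 is the farthest left at -3.93 in RPFs and -4.04 in RNA.

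Translational efficiency (TE) is the RPF CPM of a gene divided by its RNA CPM in the same liver. Its change was tested as the interaction of genotype and library type. RPF and RNA libraries were each scaled with their own TMM factors, so TE is relative to the bulk of genes. A shift in ribosome loading shared by all genes would be removed by this scaling and was not tested. The RPF and RNA changes above are relative in the same way. The paper reports a global reduction of ribosome occupancy in BM livers at the later day, which these values cannot show. None of the 10 genes was called for TE in any of the 6 genotype comparisons, with edgeR, where 0.0488% (B), 0.971% (M) and 2.23% (BM) of all genes were called at day 4 and 0.0564%, 0% and 0.259% at day 10. At an unadjusted p under 0.05 there was 1 of the 10 genes, Abcb11 in M at day 4 (log2 0.25 ± 0.12, adjusted p = 0.671). DESeq2 called none of the 10 and the fit with the mouse as a block none, while edgeR with all 8 groups in 1 fit called Baat in BM at day 10 (0.73, adjusted p = 0.0678). Over all genes in M at day 10, where edgeR called 0, 334 had an unadjusted p under 0.05 and DESeq2 called 3.

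The TE values that came nearest to a call in BM were those of Baat at day 10. Its log2 TE was -0.04, 0.20 and 0.17 in the WT livers and 0.17, 1.03 and 1.06 in the BM livers, so mice 2 and 3 stood above WT and mouse 1 lay in the WT range. The change was 0.70 ± 0.35 (adjusted p = 0.528) on the log2 scale. Without BM mouse 1 it was 0.92 (adjusted p = 0.00756), and that of Abcb11 was 0.64 (adjusted p = 0.0716) against 0.18 ± 0.64 (adjusted p = 0.954) with all mice. Without that mouse 2283 genes in all were called for TE against 27 with it. For Slc27a5 the log2 TE in the BM livers of day 10 was 1.15, 1.46 and 1.57 and in WT 0.75, 1.01 and 0.90 (change 0.49 ± 0.28, adjusted p = 0.598), and for Cyp27a1 it was 1.22, 0.71 and 0.76 and 1.32, 1.30 and 1.36 (change -0.47 ± 0.29, adjusted p = 0.621). TE is not comparable between genes on this scale, since RPFs were counted on 1 coding sequence and RNA over all isoforms.

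**Figure D3:**
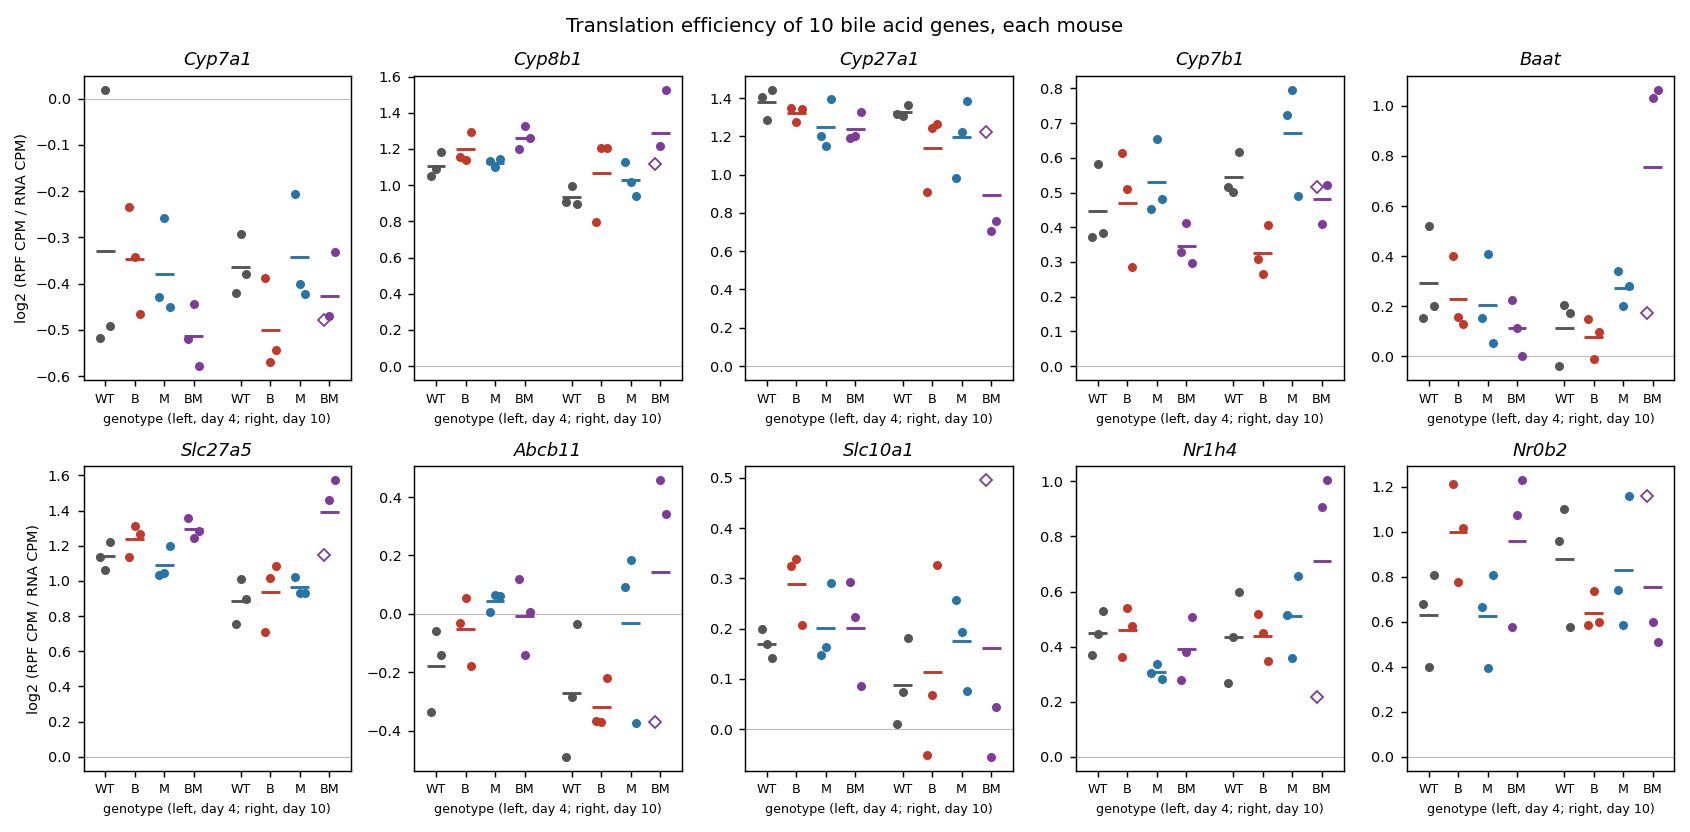
Log2 TE (RPF CPM over RNA CPM) of the 10 bile acid genes in each liver, by genotype at day 4 and day 10 (points, 3 mice per group; bars, group means). In BM at day 10 the Baat points of mice 2 and 3 lie at 1.03 and 1.06 and mouse 1 at 0.17; no gene's TE change was called with 3 against 3 mice, and that of Baat was with all 8 groups in 1 fit.

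Comparing BM with each single mutant asks what the second allele adds. Against B at day 4, 8 (0 higher, 8 lower) of the 10 genes were called in RPFs and 8 in RNA, where 44.7% and 34.8% of all genes were. Cyp7a1 was lower in BM than in B in RPFs (log2 -0.87 ± 0.24, adjusted p = 0.0167) and in RNA (log2 -0.74 ± 0.24, adjusted p = 0.034), the RNA call being lost without BM mouse 2, BM mouse 3 or B mouse 2 (-0.65 to -0.49, adjusted p from 0.118 to 0.147). Cyp8b1 was 4.14-fold lower (log2 -2.05 ± 0.27, adjusted p = 0.000301), Cyp27a1 1.74-fold lower (log2 -0.80 ± 0.09, adjusted p = 0.000155) and Baat 1.6-fold lower (log2 -0.68 ± 0.10, adjusted p = 0.000433). Cyp7b1, Slc27a5, Abcb11 and Slc10a1 were lower too, with log2 changes from -0.66 to -0.54. Against M at day 4, 8 (1 higher, 7 lower) were called in RPFs and 8 in RNA, with 38.2% and 30.5% of all genes. Cyp7a1 was higher in BM than in M (log2 RPF change 0.76 ± 0.22, adjusted p = 0.0261), and Cyp8b1 (-2.58 ± 0.21, adjusted p = 4.15e-05), Slc10a1 (-0.99 ± 0.10, adjusted p = 0.000122) and Slc27a5 (-0.79 ± 0.11, adjusted p = 0.000581) were lower. In RNA the Cyp7b1 call against M was lost without BM mouse 3 (-0.34, adjusted p = 0.108), and in RPFs Nr0b2, not called with all mice, was called without BM mouse 2 or M mouse 2 (0.44 to 0.50, adjusted p from 0.0478 to 0.0944). Cyp7a1 RNA against B at day 4 was not called by DESeq2 (-0.75, adjusted p = 0.148).

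Against B at day 10, 5 (1 higher, 4 lower) were called in RPFs and 6 in RNA, where 36.5% and 31.8% of all genes were. With 1 mouse left out, the RPF calls over all genes ran from 2000 to 7170 (4235 with all mice). Cyp7b1 was 6.15-fold lower in BM than in B in RPFs (log2 -2.62 ± 0.20, adjusted p = 0.00086), with BM livers at 107 to 115 CPM and B livers at 575 to 861. Abcb11 was 2.86-fold lower (log2 -1.52 ± 0.31, adjusted p = 0.0167), and its RNA change of -1.77 ± 0.45 (adjusted p = 0.0221) was -2.68 (adjusted p = 3.60e-06) without BM mouse 1. Cyp27a1 was lower in RPFs (log2 -0.75 ± 0.15, adjusted p = 0.0161) and in RNA (log2 -0.51 ± 0.18, adjusted p = 0.0749), the RNA call being lost without BM mouse 2, BM mouse 3, B mouse 1, B mouse 2 or B mouse 3 (-0.63 to -0.37, adjusted p from 0.101 to 0.212). Slc10a1 was lower in RPFs (log2 -0.65 ± 0.18, adjusted p = 0.0392), lost without BM mouse 3, B mouse 1 or B mouse 2 (-0.62 to -0.51, adjusted p from 0.121 to 0.132), and in RNA (log2 -0.70 ± 0.23, adjusted p = 0.0573), lost without BM mouse 3, B mouse 1 or B mouse 2 (-0.66 to -0.56, adjusted p from 0.155 to 0.189). Cyp8b1 went the other way and was higher in BM than in B in RPFs (log2 2.44 ± 0.71, adjusted p = 0.0431) and RNA (log2 2.15 ± 0.61, adjusted p = 0.0328), through mice 2 and 3. The RPF call was lost without BM mouse 2, BM mouse 3, B mouse 1, B mouse 2 or B mouse 3 (1.92 to 2.58, adjusted p from 0.103 to 0.139), and the RNA call without BM mouse 2 or B mouse 2 (1.48 to 1.95, adjusted p from 0.118 to 0.129).

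Several values between BM and B at day 10 became calls when 1 mouse was left out. Without BM mouse 1 these were, in RPFs, Nr1h4 (0.85, adjusted p = 0.00261) and Nr0b2 (-1.43, adjusted p = 0.00362) and, in RNA, Slc27a5 (-0.37, adjusted p = 0.0734) and Nr0b2 (-1.36, adjusted p = 0.0101). Without B mouse 3, Cyp7a1 was called in RPFs (0.71, adjusted p = 0.0809) and Nr0b2 in RNA (-1.12, adjusted p = 0.0672). With all mice Cyp7a1 did not differ beyond the threshold between BM and B (log2 RPF change 0.31 ± 0.30, adjusted p = 0.448). Nr1h4 RPFs against B at day 10 were called by DESeq2 (0.63, adjusted p = 0.0773). Nr0b2 RNA against B at day 10 was called with RLE size factors and by DESeq2 (-0.91 to -0.89, adjusted p from 0.0885 to 0.0983).

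Against M at day 10, 7 (1 higher, 6 lower) were called in RPFs and 8 in RNA, where 32.7% and 32.9% of all genes were. In RPFs Abcb11 was 5.66-fold lower (log2 -2.50 ± 0.37, adjusted p = 0.0059), Cyp7b1 6.15-fold (log2 -2.62 ± 0.22, adjusted p = 0.000837) and Slc10a1 3.76-fold (log2 -1.91 ± 0.25, adjusted p = 0.00397), while Cyp7a1 was 2.95-fold higher (log2 1.56 ± 0.37, adjusted p = 0.0266). These were called with each mouse left out. Nr0b2 was 3.85-fold lower (log2 -1.94 ± 0.50, adjusted p = 0.0338), lost without BM mouse 2, BM mouse 3, M mouse 1 or M mouse 2 (-1.87 to -1.59, adjusted p from 0.106 to 0.116) and at -2.69 (adjusted p = 0.000662) without BM mouse 1. Cyp27a1 was lower (log2 -0.44 ± 0.16, adjusted p = 0.0884), lost without BM mouse 2, BM mouse 3, M mouse 1 or M mouse 2 (-0.43 to -0.36, adjusted p from 0.211 to 0.274). Baat was lower (log2 -0.84 ± 0.32, adjusted p = 0.098), lost without BM mouse 2, BM mouse 3, M mouse 1, M mouse 2 or M mouse 3 (-1.03 to -0.74, adjusted p from 0.109 to 0.252), and at -0.51 (adjusted p = 0.03) without BM mouse 1. Cyp8b1 RNA was lower (log2 -1.93 ± 0.58, adjusted p = 0.0444), lost without BM mouse 3, M mouse 1 or M mouse 2 (-1.98 to -1.88, adjusted p from 0.103 to 0.124), and its RPFs were called without BM mouse 1 (-1.10, adjusted p = 0.00169). Nr1h4 RPFs were called higher without BM mouse 1 (0.43, adjusted p = 0.015) and Slc27a5 RPFs lower without M mouse 3 (-0.74, adjusted p = 0.0429). The Cyp8b1 RNA change was -2.61 (adjusted p = 0.0326) without BM mouse 2. The RNA change of Abcb11 was -2.40 ± 0.48 (adjusted p = 0.00952) with all mice and -3.32 (adjusted p = 1.24e-07) without BM mouse 1. Cyp8b1 RPFs against M at day 10 were called by DESeq2 (-1.64, adjusted p = 0.0313). Slc27a5 RPFs against M at day 10 were called by DESeq2 (-0.53, adjusted p = 0.0979).

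Whether a genotype's change differed between the days was tested as the log2 change at day 10 minus that at day 4. For B, 4 (0 higher, 4 lower) of the 10 genes were called in RPFs and 4 (1 higher, 3 lower) in RNA, where 17.2% and 9.31% of all genes were. The B effect on Cyp8b1 moved by -3.56 ± 0.36 (adjusted p = 7.33e-05) in RPFs (log2 -0.37 at day 4 and -3.93 at day 10). That on Slc10a1 moved by -1.12 ± 0.23 (adjusted p = 0.0073), on Abcb11 by -0.98 ± 0.20 (adjusted p = 0.00713) and on Cyp27a1 by -0.67 ± 0.19 (adjusted p = 0.0362). In RNA the same held for Cyp8b1 (-3.61 ± 0.38, adjusted p = 2.74e-05), Slc10a1 (-1.01 ± 0.25, adjusted p = 0.0245) and Abcb11 (-0.80 ± 0.18, adjusted p = 0.0107), and Cyp7b1 moved up (1.001 ± 0.30, adjusted p = 0.056), a call lost without B day 10 mouse 1, WT day 10 mouse 1, B day 4 mouse 1, B day 4 mouse 2, WT day 4 mouse 1 or WT day 4 mouse 2 (0.81 to 0.996, adjusted p from 0.103 to 0.137). Some values not called with all mice were called when 1 was left out, namely Slc27a5 RPFs without B day 10 mouse 3 or WT day 10 mouse 2 (-0.60 to -0.49, adjusted p from 0.00853 to 0.0997), Cyp7b1 RPFs without WT day 10 mouse 3 (1.11, adjusted p = 0.0283), Cyp7a1 RPFs without B day 10 mouse 3 (-0.89, adjusted p = 0.0931), Cyp27a1 RNA without B day 10 mouse 1 or WT day 10 mouse 2 (-0.69 to -0.66, adjusted p from 0.0301 to 0.0604) and Slc27a5 RNA without WT day 10 mouse 2 (-0.61, adjusted p = 0.0325). The change of Cyp7a1 with all mice was -0.48 ± 0.40 (adjusted p = 0.497). For the Cyp7b1 RNA difference, the B means were 552.1 CPM at day 4 and 551.7 at day 10. The WT means were 670.4 and 334.5, so it was the WT level that moved between the days. Slc27a5 RPFs for B were called with RLE size factors and by DESeq2 (-0.47, adjusted p from 0.0639 to 0.0989).

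For M, 0 of the 10 genes were called in RPFs or RNA by edgeR, where 1.18% and 1.2% of all genes were. At an unadjusted p under 0.05 there were 0 in RPFs and 1 in RNA, and DESeq2 called 0 in both. Baat RPFs were called without M day 10 mouse 3 (0.46, adjusted p = 0.0944) and Cyp7b1 RNA without WT day 10 mouse 3 (1.01, adjusted p = 0.1 when rounded).

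For BM, 7 (2 higher, 5 lower) were called in RPFs and 4 (0 higher, 4 lower) in RNA, where 35.7% and 29.9% of all genes were. The BM effect moved by a further -1.95 ± 0.36 (adjusted p = 0.00221) for Abcb11, -1.23 ± 0.27 (adjusted p = 0.00602) for Slc10a1 and -1.22 ± 0.35 (adjusted p = 0.0238) for Cyp7b1 in RPFs. In RNA it moved by -1.97 ± 0.51 (adjusted p = 0.0133), -1.24 ± 0.29 (adjusted p = 0.00703) and -1.23 ± 0.30 (adjusted p = 0.0105) for these genes, and by -0.63 ± 0.19 (adjusted p = 0.0296) for Baat. These 7 calls were kept with each mouse left out, and without BM day 10 mouse 1 the RNA difference of Abcb11 was -2.89 (adjusted p = 2.34e-09). The remaining RPF calls depended on single mice. Cyp7a1 moved up (0.70 ± 0.25, adjusted p = 0.0605), lost without BM day 10 mouse 2, WT day 10 mouse 1, WT day 10 mouse 2, BM day 4 mouse 2, BM day 4 mouse 3 or WT day 4 mouse 3 (0.51 to 0.67, adjusted p from 0.111 to 0.164). Cyp27a1 moved down (-0.63 ± 0.22, adjusted p = 0.0544), lost without BM day 10 mouse 3, WT day 10 mouse 1, WT day 10 mouse 3, BM day 4 mouse 2 or WT day 4 mouse 3 (-0.59 to -0.53, adjusted p from 0.107 to 0.126). Nr1h4 moved up (0.65 ± 0.26, adjusted p = 0.0783), lost without any 1 of the libraries except BM day 10 mouse 1 (0.47 to 0.71, adjusted p from 0.1 to 0.205). Nr0b2 moved down (-1.48 ± 0.62, adjusted p = 0.0965; -2.33, adjusted p = 0.00057 without BM day 10 mouse 1), lost without any 1 of the libraries except BM day 10 mouse 1 and WT day 10 mouse 3 (-1.66 to -0.99, adjusted p from 0.111 to 0.265).

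The BM effect on Cyp8b1 was -2.42 at day 4 and -1.51 at day 10 in RPFs, a difference of 0.92 ± 0.80 (adjusted p = 0.415). Without BM day 10 mouse 1 it was called higher in RPFs (1.40, adjusted p = 0.00622) and in RNA (1.16, adjusted p = 0.0237), and so was Baat in RPFs (0.52, adjusted p = 0.00723). In RNA, Nr0b2 was called without BM day 10 mouse 1, WT day 10 mouse 2, WT day 10 mouse 3 or BM day 4 mouse 2 (-1.68 to -1.33, adjusted p from 0.0126 to 0.0992), Nr1h4 without WT day 10 mouse 1 (0.45, adjusted p = 0.0796) and Cyp7a1 without BM day 4 mouse 1 or WT day 4 mouse 2 (0.85 to 0.90, adjusted p from 0.0257 to 0.0868).

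**Figure D4:**
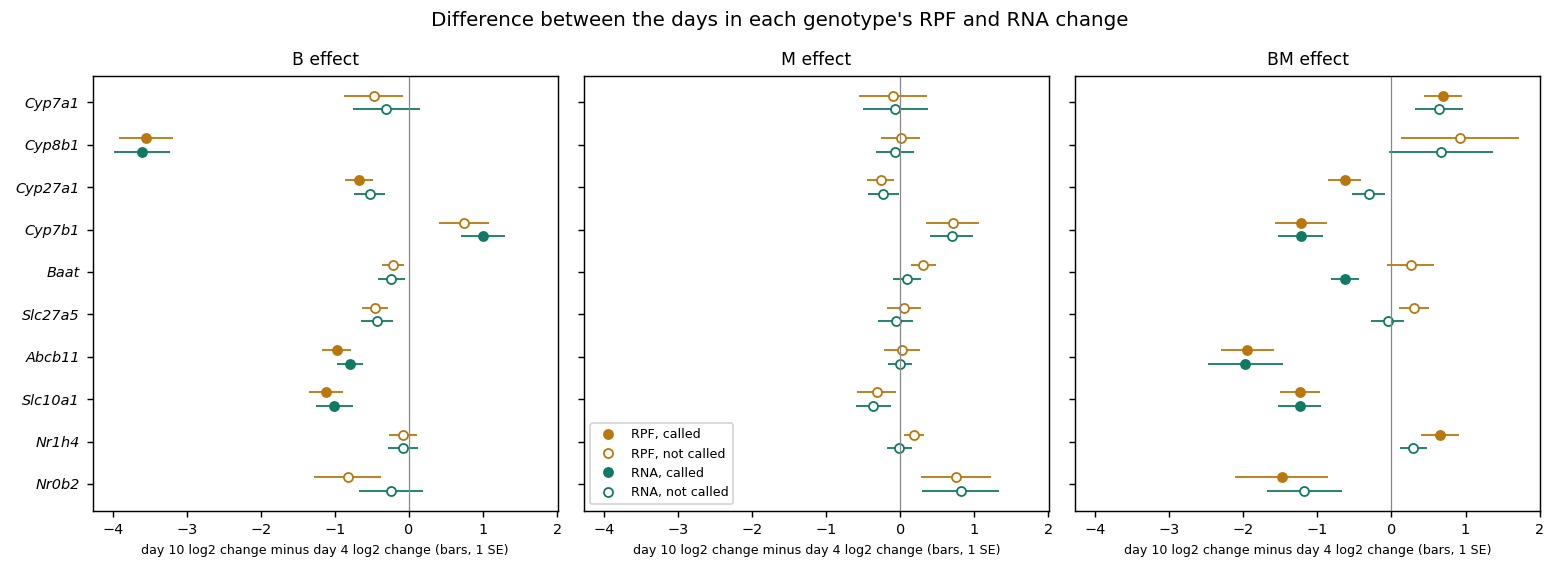
Difference between the days in each genotype's log2 change (day 10 minus day 4) for the 10 bile acid genes, in RPFs and RNA (points, edgeR contrasts over 12 mice; bars, 1 SE; filled, adjusted p under 0.1). Cyp8b1 in B lies at -3.56 in RPFs and Abcb11 in BM at -1.95, and no point of M is filled.

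The WT livers also allow the days to be compared without a mutation. Between WT at day 10 and WT at day 4, 1 of the 10 was called in RPFs and 1 in RNA, where 4.44% and 2.32% of all genes were, and in both it was Cyp7b1. It was lower at day 10, 1.85-fold in RPFs (log2 -0.89 ± 0.24, adjusted p = 0.0879) and 2.00-fold in RNA (log2 -1.004 ± 0.21, adjusted p = 0.0301). The RPF call was lost without WT day 10 mouse 1, WT day 4 mouse 1, WT day 4 mouse 2 or WT day 4 mouse 3 (-1.02 to -0.80, adjusted p from 0.117 to 0.259) and by DESeq2, and the RNA call without WT day 10 mouse 1 or WT day 4 mouse 1 (-0.94 to -0.91, adjusted p from 0.102 to 0.118). Slc10a1, not called, was called higher at day 10 without WT day 10 mouse 2 (0.40, adjusted p = 0.0392 in RPFs; 0.48, adjusted p = 0.0398 in RNA).

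Markers of hepatocyte zones also differed between groups. The summed RPF CPM of 10 zone 3 markers (among them Glul, Cyp2e1 and Axin2) was 7430 to 8017 in WT, 17170 to 21770 in B, 7235 to 7604 in M and 15130 to 18250 in BM at day 4. At day 10 it was 5642 to 10030, 16190 to 25630, 6718 to 7368 and 18660 to 21660. B and BM, the groups with high Cyp7a1, did not overlap WT or M. Of these markers 9, 9, 9 and 7 of 10 were called higher in B and BM at day 4 and in B and BM at day 10. Of all genes tested in RPFs, those called higher made up 6.21%, 18.5% and 26.2% in B, M and BM at day 4 and 13.1%, 10.6% and 24.5% at day 10, and those called lower 6.26%, 14.7% and 24.7% in B, M and BM at day 4 and 12.1%, 8.8% and 22.3% at day 10. The 10 zone 1 markers (among them Hal, Gls2 and Cyp2f2) summed to 11540 to 14080 in WT, 7318 to 10190 in B, 10910 to 11400 in M and 3305 to 3681 in BM at day 4. At day 10 the sums were 11700 to 12180, 4780 to 4945, 9094 to 10790 and 6689 to 18580. Zone 1 markers called lower were 4 of 10 in B and 10 in BM at day 4, and 10 in B and 4 in BM at day 10, where 1 was higher. Mouse 1 of BM at day 10, the liver with 37.5 Cyp8b1 CPM, had the lowest zone 1 sum of its group (6689). The sums of BM mice 2 and 3 (15800 and 18580) were above those of all WT livers of day 10. A sum weighs abundant markers most. The median log2 RPF change of the 10 zone 1 markers in BM at day 10, with all 3 mice, was -0.44. None of these 20 markers was at 0 in all mice of any group, and their part in the bile acid gene changes was not tested.

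**Figure D5:**
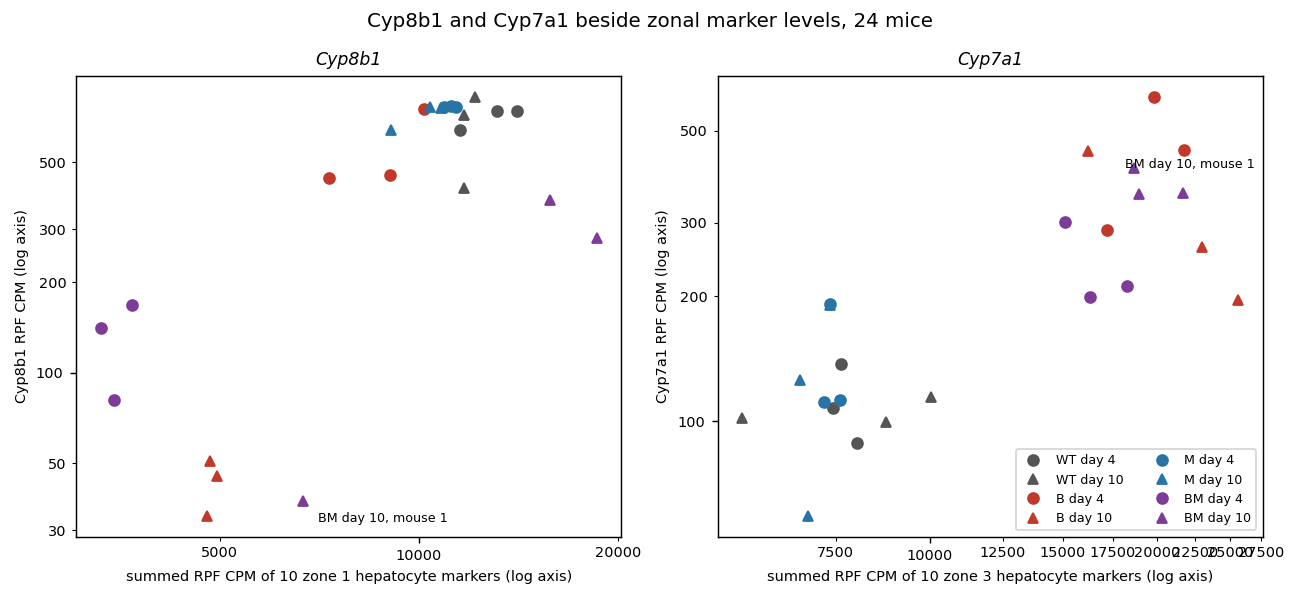
RPF CPM of Cyp8b1 against the summed RPF CPM of 10 zone 1 hepatocyte markers, and of Cyp7a1 against that of 10 zone 3 markers, in the 24 livers (1 point per mouse, log axes; colour, genotype; symbol, day). Cyp8b1 and the zone 1 sum are both low in B at day 10 and in BM at day 4, and BM mouse 1 of day 10 lies below the other BM livers of that day on both axes.

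The 10 hepatocyte markers (among them Alb, Apob and Ttr) summed to 142900 to 158500 RPF CPM in WT at day 4, 109900 to 133100 in B, 89750 to 110100 in M and 68320 to 81180 in BM. At day 10 the sums were 134100 to 166200, 81380 to 88210, 82840 to 89240 and 62960 to 73980. All 10 markers were called lower in BM at day 4, where 24.7% of all genes were, with 7 lower and 2 higher in BM at day 10, where 22.3% and 24.5% of all genes were. In B, 5 were lower at day 4 and 7 at day 10, with 0 and 0 higher. In M, 9 were lower at day 4 and 6 at day 10, where 3 and 1 of the bile acid genes were called in RPFs. Lists for other liver cells are given as summed RPF CPM. The cholangiocyte markers, of which 7 of 8 had RPF values, summed to 86.3 to 135 in WT, 60.1 to 64.5 in B, 44.5 to 63.5 in M and 37.1 to 54.6 in BM at day 4. The cholangiocyte sums of day 10 were 44.5 to 84.9 in WT, 37 to 63.6 in B, 53.8 to 101 in M and 36.3 to 64.2 in BM. Markers called lower and higher numbered 1 and 0 in B, 2 and 0 in M and 3 and 0 in BM at day 4. The cholangiocyte counts at day 10 were 0 and 0, 0 and 1 and 1 and 0. Only 4, 4 and 5 of these markers were tested in B, M and BM at day 4 and 5, 4 and 4 at day 10. The 7 Kupffer cell markers summed to 677 to 789 in WT, 555 to 644 in B, 440.5 to 1236 in M and 394 to 418 in BM at day 4. The Kupffer cell sums of day 10 were 548 to 764 in WT, 614 to 910.4 in B, 548 to 798 in M and 854 to 915 in BM. Markers called lower and higher numbered 1 and 0 in B, 1 and 0 in M and 6 and 0 in BM at day 4. The Kupffer cell counts at day 10 were 0 and 1, 0 and 0 and 0 and 2. The 7 endothelial cell markers summed to 833 to 939 in WT, 868 to 971 in B, 654 to 799 in M and 699 to 784 in BM at day 4. The endothelial cell sums of day 10 were 848 to 1002 in WT, 694 to 841 in B, 629.5 to 699 in M and 683 to 877 in BM. Markers called lower and higher numbered 0 and 0 in B, 3 and 0 in M and 5 and 0 in BM at day 4. The endothelial cell counts at day 10 were 4 and 0, 5 and 0 and 4 and 1. The 7 stellate cell markers summed to 990.1 to 1033 in WT, 968 to 1094 in B, 752 to 898 in M and 607 to 742 in BM at day 4. The stellate cell sums of day 10 were 1043 to 1194 in WT, 579.7 to 773 in B, 738 to 848 in M and 702 to 891 in BM. Markers called lower and higher numbered 1 and 0 in B, 3 and 0 in M and 4 and 0 in BM at day 4. The stellate cell counts at day 10 were 5 and 0, 3 and 0 and 5 and 1. The 7 blood cell markers summed to 573 to 619 in WT, 439.5 to 689 in B, 291 to 386 in M and 225 to 309.9 in BM at day 4. The blood cell sums of day 10 were 470.1 to 602 in WT, 600.3 to 889.8 in B, 259 to 366 in M and 219 to 799 in BM. Markers called lower and higher numbered 1 and 0 in B, 2 and 0 in M and 4 and 0 in BM at day 4. The blood cell counts at day 10 were 1 and 1, 2 and 0 and 1 and 1. Of the blood cell markers 4, 3 and 4 were tested in B, M and BM at day 4 and 6, 4 and 7 at day 10. Against these counts stand the all-gene shares given with the zone markers, from 6.26% lower and 6.21% higher in B at day 4 to 24.7% and 26.2% in BM at day 4. In these lists Muc1 was at 0 in RNA in WT at day 10, Cd79a in WT at day 4 and Cd3e in M at day 10. Their part in the results was not tested.

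The other genes of bile acid metabolism were taken from a list of 55: 17 synthesis enzymes, 17 transporters and 21 regulators and sulphotransferases. Of these 46 to 47 were tested, and Fgf15 and Gpbar1 had no RPF row. In RPFs at day 4, 15 higher and 4 lower were called in B, 10 higher and 9 lower in M and 12 higher and 15 lower in BM. At day 10 the counts were 6 higher and 13 lower in B, 3 higher and 7 lower in M and 10 higher and 21 lower in BM. RNA gave 12 higher and 2 lower in B, 11 higher and 7 lower in M and 14 higher and 12 lower in BM at day 4. Day 10 RNA gave 3 higher and 8 lower, 3 higher and 7 lower and 8 higher and 20 lower. In RPFs these calls made up 41.3% (all genes 12.5%), 41.3% (all genes 33.3%) and 58.7% (all genes 50.9%) at day 4 in B, M and BM. They made up 41.3% (all genes 25.2%), 21.3% (all genes 19.4%) and 66% (all genes 46.8%) at day 10. In RNA the shares were 30.4% (all genes 8.14%), 39.1% (all genes 23.7%) and 56.5% (all genes 41.9%) at day 4. RNA shares of day 10 were 23.9% (all genes 15.6%), 21.3% (all genes 15.7%) and 60.9% (all genes 45.7%). In M on both days and in BM at day 4 the RPF shares were near those of all genes. No gene of the list was called for TE with edgeR in any comparison. The synthesis enzymes in BM at day 10 were 9 lower and 1 higher of 14 tested, where 22.3% of all genes were lower and 24.5% higher. At day 4 they were 5 higher and 2 lower in B, 1 and 4 in M and 4 and 5 in BM. In B and M at day 10 they were 1 higher and 4 lower and 1 and 1. Of 15 transporters, 8 were called higher and 0 lower in B at day 4, where 6.21% and 6.26% of all genes were. In M and BM at day 4 they were 6 higher and 2 lower and 5 and 4. At day 10 they were 4 and 5 in B, 1 and 6 of 16 in M and 3 and 6 in BM. The regulators were 2 higher and 2 lower, 3 and 3, and 3 and 6 in B, M and BM at day 4. Their day 10 counts were 1 and 4, 1 and 0, and 6 and 6. The shares of all genes are those given with the zone markers.

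All RPF calls against WT are given for each gene named here, as log2 changes. Among sinusoidal uptake carriers, Slco1a4, an organic anion transporter that takes up bile acids, rose in B at day 4 (1.42 ± 0.24, adjusted p = 0.00413), M at day 4 (0.96 ± 0.17, adjusted p = 0.00295), BM at day 4 (0.85 ± 0.16, adjusted p = 0.00133), B at day 10 (1.51 ± 0.24, adjusted p = 0.00364) and BM at day 10 (3.63 ± 0.51, adjusted p = 0.00198). Its RPF counts in BM at day 10 were 7607, 17806 and 21749 against 828, 918 and 1035 in WT, a 12.4-fold rise. Slco1b2, a carrier of the same family, rose in B at day 4 (1.09 ± 0.11, adjusted p = 0.000339), BM at day 4 (0.96 ± 0.11, adjusted p = 3.67e-05) and B at day 10 (0.62 ± 0.20, adjusted p = 0.0632). Slco1a1 rose in B at day 4 (0.39 ± 0.13, adjusted p = 0.0939). It fell in B at day 10 (-0.75 ± 0.15, adjusted p = 0.0113), M at day 10 (-0.85 ± 0.23, adjusted p = 0.0483) and BM at day 10 (-4.70 ± 0.34, adjusted p = 0.000148), the last a 25.9-fold fall. Slco2b1, an uptake carrier, fell in BM at day 4 (-0.84 ± 0.08, adjusted p = 8.88e-06), M at day 10 (-0.49 ± 0.15, adjusted p = 0.0666) and BM at day 10 (-1.40 ± 0.51, adjusted p = 0.0627). Its RPF counts in BM at day 10 were 1992, 417 and 329, and without BM mouse 1 the change was -2.37 (adjusted p = 3.24e-07). The Slco1b2 call in B at day 10 was lost without B mouse 1 or 2 or WT mouse 1 (0.59 to 0.64). The Slco1a1 call in B at day 4 was lost without B mouse 2 or 3 or WT mouse 1 or 3 (0.24 to 0.45). The Slco1a1 call in M at day 10 was lost without M mouse 1 or WT mouse 3 (-0.91 to -0.68). The Slco2b1 call in M at day 10 was lost without M mouse 1 or WT mouse 1 or 3 (-0.56 to -0.42). The Slco2b1 call in BM at day 10 was lost without BM mouse 2 or 3 or any WT mouse (-1.50 to -1.06). Slco1b2 in B at day 10 was 0.41 (adjusted p = 0.0882) without WT mouse 2.

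Among export pumps, Abcc2, which exports conjugates into bile, rose in B at day 4 (0.86 ± 0.10, adjusted p = 0.000699), M at day 4 (0.38 ± 0.09, adjusted p = 0.0106), BM at day 4 (0.60 ± 0.10, adjusted p = 0.000477) and BM at day 10 (1.07 ± 0.20, adjusted p = 0.00615). Abcc3, a basolateral pump, rose in B at day 4 (0.51 ± 0.10, adjusted p = 0.00955) and M at day 4 (0.87 ± 0.11, adjusted p = 0.000546). It fell in B at day 10 (-2.48 ± 0.24, adjusted p = 0.00032) and BM at day 10 (-1.23 ± 0.31, adjusted p = 0.0169). Abcb1a rose in B at day 4 (0.41 ± 0.13, adjusted p = 0.0836), M at day 4 (0.34 ± 0.11, adjusted p = 0.0433), BM at day 4 (0.76 ± 0.11, adjusted p = 0.000232) and B at day 10 (0.62 ± 0.14, adjusted p = 0.0181). Tmem30a, a flippase subunit, fell in M at day 4 (-0.49 ± 0.09, adjusted p = 0.00261), BM at day 4 (-0.68 ± 0.08, adjusted p = 3.55e-05), M at day 10 (-0.88 ± 0.12, adjusted p = 0.00516) and BM at day 10 (-1.44 ± 0.22, adjusted p = 0.00289). Slc51b, a subunit of the basolateral bile acid exporter, had 22, 16 and 53 RPFs in the M livers of day 10 and 7, 7 and 1 in the WT livers. It passed the filter on low counts only through the M livers, and it is 1 of the 3 counted higher in M at day 10. The Abcb1a call in B at day 4 was lost without B mouse 2 or 3 or any WT mouse (0.29 to 0.47). The Abcb1a call in M at day 4 was lost without M mouse 1 or 3 or WT mouse 3 (0.26 to 0.32).

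Of the synthesis enzymes, Cyp39a1, an oxysterol 7α-hydroxylase, fell in B at day 4 (-0.72 ± 0.17, adjusted p = 0.0283), M at day 4 (-0.94 ± 0.11, adjusted p = 0.000334), BM at day 4 (-0.23 ± 0.09, adjusted p = 0.0684), B at day 10 (-0.90 ± 0.24, adjusted p = 0.0319) and M at day 10 (-1.48 ± 0.22, adjusted p = 0.00674). Cyp2c70, which makes muricholic acids, fell in B at day 4 (-0.34 ± 0.11, adjusted p = 0.0884), M at day 4 (-0.37 ± 0.08, adjusted p = 0.00837), BM at day 4 (-0.62 ± 0.08, adjusted p = 9.12e-05) and BM at day 10 (-1.54 ± 0.21, adjusted p = 0.00169). Scp2 fell in M at day 4 (-0.43 ± 0.08, adjusted p = 0.00326), BM at day 4 (-0.72 ± 0.10, adjusted p = 0.000134), B at day 10 (-0.52 ± 0.13, adjusted p = 0.0272) and BM at day 10 (-1.08 ± 0.24, adjusted p = 0.0118). Slc27a2 fell in M at day 4 (-0.29 ± 0.09, adjusted p = 0.0483), BM at day 4 (-0.75 ± 0.14, adjusted p = 0.00103), B at day 10 (-0.70 ± 0.15, adjusted p = 0.0117) and BM at day 10 (-1.94 ± 0.22, adjusted p = 0.000952). Ephx1 fell in B at day 10 (-0.87 ± 0.18, adjusted p = 0.012) and BM at day 10 (-0.87 ± 0.24, adjusted p = 0.0239). Amacr, a racemase of side-chain oxidation, rose in B at day 4 (0.46 ± 0.10, adjusted p = 0.0178) and BM at day 4 (0.86 ± 0.09, adjusted p = 2.09e-05). It fell in BM at day 10 (-0.57 ± 0.22, adjusted p = 0.0758). Akr1d1, the steroid 5β-reductase, rose in M at day 4 (0.81 ± 0.09, adjusted p = 0.000263), M at day 10 (0.60 ± 0.15, adjusted p = 0.0362) and BM at day 10 (0.53 ± 0.19, adjusted p = 0.0581). The Cyp39a1 call in B at day 4 was lost without WT mouse 3 (-0.67). The Cyp39a1 call in BM at day 4 was lost without BM mouse 1 or 3 or WT mouse 1 or 3 (-0.21 to -0.17). The Cyp39a1 call in B at day 10 was lost without B mouse 2 (-0.77). The Cyp2c70 call in B at day 4 was lost without B mouse 1 or 3 or any WT mouse (-0.37 to -0.22). The Scp2 call in B at day 10 was lost without B mouse 2 (-0.46). The Slc27a2 call in M at day 4 was lost without M mouse 1 or 2 or WT mouse 2 or 3 (-0.29 to -0.23). The Amacr call in BM at day 10 was lost without BM mouse 2 or 3 or WT mouse 1 or 3 (-0.54 to -0.44). The Akr1d1 call in M at day 10 was lost without M mouse 1 (0.57). The Akr1d1 call in BM at day 10 was lost without BM mouse 2 or 3 or any WT mouse (0.36 to 0.61). The Amacr counts in BM at day 10 were 2972, 1393 and 1271, and without BM mouse 1 the change was -0.83 (adjusted p = 0.000197). Cyp39a1 in BM at day 10 went from 0.62 (adjusted p = 0.19) to 0.96 (adjusted p = 0.000136) without that mouse.

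Among regulators, Rxra, the partner of FXR, fell in B at day 4 (-0.43 ± 0.11, adjusted p = 0.0392), M at day 4 (-0.27 ± 0.08, adjusted p = 0.0282) and BM at day 4 (-0.39 ± 0.16, adjusted p = 0.0684). Zfp36l1, an RNA-binding protein, fell in BM at day 4 (-0.90 ± 0.14, adjusted p = 0.000321). Prox1 rose in M at day 10 (0.91 ± 0.20, adjusted p = 0.0223) and BM at day 10 (1.19 ± 0.17, adjusted p = 0.00218). It fell in M at day 4 (-0.46 ± 0.17, adjusted p = 0.069) and BM at day 4 (-0.39 ± 0.14, adjusted p = 0.0407). Ppargc1a, a transcriptional coactivator, rose in M at day 4 (1.08 ± 0.17, adjusted p = 0.0013), BM at day 4 (0.48 ± 0.19, adjusted p = 0.0633), B at day 10 (0.46 ± 0.16, adjusted p = 0.0825) and BM at day 10 (3.67 ± 0.69, adjusted p = 0.00597). Its RPF counts in BM at day 10 were 472, 2224 and 2808 against 106, 122 and 99 in WT. Onecut1, a hepatic transcription factor, fell in BM at day 10 (-3.00 ± 0.28, adjusted p = 0.000396), a 7.98-fold fall. The Rxra call in B at day 4 was lost without WT mouse 1 or 3 (-0.44). The Rxra call in M at day 4 was lost without M mouse 1 (-0.25). The Rxra call in BM at day 4 was lost without BM mouse 1 or any WT mouse (-0.40 to -0.19). The Prox1 call in M at day 4 was lost without M mouse 1 or 3 or WT mouse 1 or 3 (-0.45 to -0.37). The Prox1 call in BM at day 4 was lost without BM mouse 2 or 3 or WT mouse 1 or 3 (-0.39 to -0.28). The Ppargc1a call in BM at day 4 was lost without BM mouse 2 or WT mouse 1 or 3 (0.31 to 0.49). The Ppargc1a call in B at day 10 was lost without B mouse 2 or 3 or WT mouse 1 or 3 (0.33 to 0.50). Prox1 was -0.71 (adjusted p = 0.00104) in M at day 4 without M mouse 2 and -0.59 (adjusted p = 0.000718) in BM at day 4 without BM mouse 1. Rxra in BM at day 10 went from -0.26 (adjusted p = 0.437) to -0.59 (adjusted p = 0.0017) without BM mouse 1. Of the 70 RPF calls of the genes named here, Slc51b and Sult2a1 aside, 23 were lost without at least 1 mouse and 0 changed sign. A further 17 of their RPF changes passed the threshold with 1 mouse left out but not with all mice.

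Sult2a8, a sulphotransferase, fell 17.9-fold in BM at day 10 (-4.16 ± 0.29, adjusted p = 0.000117). Sult2a1 had 0, 0 and 0 RPFs in the WT livers and 15, 42 and 49 in the BM livers, at least 24.7-fold higher with WT set to 3 counts over the group and TMM-scaled library sizes. It was tested only in BM at day 10 in RPFs, passed the filter only through the BM livers and is 1 of the 10 counted higher there. Sult2a1 has near-identical neighbours with which it can share reads, so its count is uncertain.

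Over the 24 livers the RPF profile of each bile acid gene was set beside those of 12000 genes by Pearson's r of log2 CPM. These values describe likeness over livers that share genotypes and have no test. Cyp8b1 was most like Hal (r = 0.973), Gls2 (r = 0.958) and Sdsl (r = 0.928), of which Hal and Gls2 are zone 1 amino acid enzymes. Cyp7a1 was most like Dis3l2 (r = 0.86), Ahr (r = 0.828) and Gstm2 (r = 0.823). For Cyp27a1 they were Fcgrt (r = 0.957), Rbp4 (r = 0.923) and Cyp2d40 (r = 0.918), and for Cyp7b1 Mup1 (r = 0.948), Mup5 (r = 0.946) and Mup13 (r = 0.946), which belong to a family of near-identical genes whose reads cannot be split with certainty. For Baat they were Apoc3 (r = 0.935), Apon (r = 0.923) and Azgp1 (r = 0.92), for Slc27a5 Uroc1 (r = 0.9), Cd59a (r = 0.898) and Rdh7 (r = 0.887), for Abcb11 Pde9a (r = 0.975), Idh1 (r = 0.97) and Adipor2 (r = 0.968) and for Slc10a1 Ces1e (r = 0.962), Pygl (r = 0.962) and Scrn2 (r = 0.958). The receptors had lower maxima, Rbks (r = 0.845), Ndufv1 (r = 0.832) and Cox6b1 (r = 0.824) for Nr1h4 and Angptl8 (r = 0.833), Chst13 (r = 0.762) and Rara (r = 0.753) for Nr0b2.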

How the data were processed

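RPFs and paired cytoplasmic RNA of 24 livers were analysed (48 libraries). The authors trimmed RPF reads with Cutadapt 1.18, removed duplicates by their molecular identifiers, aligned them to the most abundant transcript per gene of a filtered GENCODE mouse set (GRCm39) and deposited counts over coding sequences without their ends. A transcript without a row in a library (1689 to 3019 per library) was taken as a count of 0. For RNA, the authors aligned reads with Bowtie2 2.3.5.1 and deposited the expected counts and TPM of RSEM 1.3.3 per isoform; these were summed per gene, and the expected counts were rounded to whole numbers. FPKM and isoform percentages were not used. Genes were located in a later GENCODE release on GRCm39 (20614 of 20622 matched).

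RPF, RNA and TE (genotype by library type) were tested two-sided with edgeR 4.0.16 (quasi-likelihood) in R 4.3.3, with TMM factors of the groups compared, filterByExpr (minimum count 10, total 15) and Benjamini-Hochberg adjustment over all genes tested. CPM per mouse used TMM factors over the 24 libraries of a type. Genes were called at an adjusted p under 0.1, the level the study used for TE. Alternatives were DESeq2 1.42.0, RLE factors, no filter, all 8 groups in 1 fit, the RNA of the counted transcript, an adjusted p under 0.05, blocks and leaving out each mouse. The scripts were tested on simulated data. The 10 genes and all lists were chosen with earlier results of these data known. All 10 are named; of the other bile acid genes, at most 3 per direction and comparison were named, those called with the largest RPF changes whose groups did not overlap; for each of the 10, the 3 most correlated other genes.

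Both libraries of a mouse come from 1 liver, so the mouse pairs them: their deviations from the group means correlated at r = 0.176 to 0.608 in all 24 mice. Replicate numbers did not pair mice over all 3 numbers (0 of 22 checks had every r over 0.1), which says nothing of a single number. Against WT at day 10, r was 0.0514 to 0.224 for number 1 and -0.182 to 0.0825 for numbers 2 and 3. For number 1 in BM against B or M at day 10 it was -0.131 to 0.0702. Livers are labelled as separate mice, and no batch was labelled. No libraries were duplicates (chi-square per degree of freedom 2.78 to 166 over 48 replicate pairs). Depth limits precision most for Nr0b2 among the 10 genes. Promoters came from RefSeq (GRCm38.p6), which matched 6 of the 10 genes; Cyp7a1, Cyp7b1, Baat and Slc27a5 had no entry.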

Additional observations from a re-analysis of the deposited data

Results flagged for a closer look

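Results are listed here where the test of the difference itself, edgeR's quasi-likelihood contrast of the day 10 change minus the day 4 change with an adjusted p under 0.1, was passed. Values are log2 differences over 12 mice. For B, the RPF differences were -3.56 for Cyp8b1, -0.67 for Cyp27a1, -0.98 for Abcb11 and -1.12 for Slc10a1. In RNA they were -3.61 for Cyp8b1, 1.00 for Cyp7b1, -0.80 for Abcb11 and -1.01 for Slc10a1. Mean Cyp7b1 RNA was level in B (552.1 and 551.7 CPM at days 4 and 10) and lower at day 10 in WT (670.4 and 334.5). For BM, the RPF differences were 0.70 for Cyp7a1, -0.63 for Cyp27a1, -1.22 for Cyp7b1, -1.95 for Abcb11, -1.23 for Slc10a1, 0.65 for Nr1h4 and -1.48 for Nr0b2. In RNA they were -1.23 for Cyp7b1, -0.63 for Baat, -1.97 for Abcb11 and -1.24 for Slc10a1. Without BM day 10 mouse 1 the RNA difference of Abcb11 was -2.89, adjusted p = 2.34e-09, and the RPF difference of Nr0b2 was -2.33, adjusted p = 0.00057. The differences of Cyp8b1, Abcb11 and Slc10a1 in B and of Cyp7b1, Abcb11 and Slc10a1 in BM passed in both RPFs and RNA. No test of outlying samples was run within the groups of 3 mice.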

How the results depend on the processing

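Over the log2 changes of the 10 genes, 4240 alternative values were computed: 3998 kept their direction and side of the threshold, 79 gained a call, 163 lost one and 0 of the called values changed sign. DESeq2 moved 10 of 340 across the threshold, RLE factors 2 of 340, no filter 7 of 180, the counted transcript's RNA 1 of 120 and leaving out 1 mouse 172 of 2400. With all 8 groups in 1 fit 17 of 180 moved: in M at day 4, 1 gene was called in RPFs and 1 in RNA instead of 3 each, and Baat was called for TE in BM at day 10 (1 instead of 0). In M at day 10, where 0 were called in RNA, DESeq2 called 1, no filter 2, all 8 groups in 1 fit 2 and the replicate number as a block 1; at an adjusted p under 0.05 RPFs gave 0 instead of 1. At that threshold the BM difference between days gave 3 genes in RPFs instead of 7, and Cyp7b1 between WT days was lost in RPFs (0), as with DESeq2 (0) and the replicate number as a block (0). The causes of these shifts were not tested.

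With the mouse as a block, which pairs the libraries, 0 of the 10 genes were called for TE, as without it; over all genes TE calls were 28 against 5 (B), 276 against 101 (M) and 650 against 235 (BM) at day 4, and 276 against 6, 34 against 0 and 543 against 27 at day 10. Replicate numbers as a block moved 16 of 280 values.

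With 1 mouse left out, the genes called in RPFs ranged over 3 to 4 (B), 3 to 3 (M) and 8 to 10 (BM) at day 4, 6 to 7, 0 to 2 and 5 to 10 at day 10, 8 to 8 and 8 to 9 for BM against B and M at day 4, 3 to 7 and 4 to 9 at day 10, 4 to 6, 0 to 1 and 3 to 9 for the day differences of B, M and BM, and 0 to 2 between WT days. In RNA the ranges were 2 to 4, 2 to 3 and 7 to 9, then 5 to 7, 0 to 1 and 6 to 9, then 7 to 8 and 7 to 8, 3 to 8 and 7 to 8, then 3 to 6, 0 to 1 and 4 to 6, and 0 to 2. For TE they were 0 to 0 except in BM at day 10 (0 to 2). Over all genes, 1 fit of 8 groups called 577 instead of 1379 (B) and 2388 instead of 3698 (M) in RPFs at day 4, 457 instead of 895 and 1711 instead of 2653 in RNA, and for TE 1, 11 and 136 instead of 5, 101 and 235 at day 4 and 30 and 788 instead of 6 and 27 in B and BM at day 10. DESeq2 called 28, 3 and 104 for TE in B, M and BM at day 10 instead of 6, 0 and 27, and 258 instead of 136 for the day difference of M in RPFs. An adjusted p under 0.05 left 1286 of 2192 (RPFs) and 1131 of 1744 (RNA) for M at day 10, 2803 of 4235 and 2369 of 3769 for BM against B and M at day 10 in RPFs, 1227 of 1997 and 54 of 136 for the day differences of B and M in RPFs, 49 of 139 for that of M in RNA (79 with the replicate number as a block), 315 of 484 and 162 of 256 between WT days, and 1 of 5 for TE in B at day 4.

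Over all genes, 80 of 240 counts with 1 mouse left out lay over 1.5 times from the count with all mice, 9 above it and 71 below, so the shares of all genes beside the counts move in both directions. Mice are given by genotype and number. RPF calls moved for B at day 4 from 1379 down to 766 to 888 (without B 2, WT 1/3), B at day 10 from 2885 down to 1647 to 1748 (without B 2, WT 3), M at day 10 from 2192 down to 1113 to 1409 (without M 1/2, WT 3). RPF calls moved for BM against B at day 10 from 4235 down to 2000 to 2669 (without BM 2/3, B 1/2/3) and up to 7170 (without BM 1), BM against M at day 10 from 3769 down to 1472 to 2146 (without BM 2/3, M 1/2) and up to 6867 (without BM 1), the day difference of B from 1997 down to 1310 to 1311 (without WT day 10 3, WT day 4 3). RPF calls moved for the day difference of M from 136 down to 4 to 59 (without M day 10 1, WT day 10 3, M day 4 1/3, WT day 4 1/3) and up to 703 (without M day 10 3), the day difference of BM from 4190 up to 6765 (without BM day 10 1), WT between days from 484 down to 206 to 322 (without WT day 10 3, WT day 4 1/3). RNA calls moved for B at day 4 from 895 down to 537 to 575 (without B 2, WT 3), M at day 4 from 2653 down to 1715 (without M 1), B at day 10 from 1765 down to 959 to 1115 (without B 2, WT 1/3). RNA calls moved for M at day 10 from 1744 down to 866 to 1004 (without M 1, WT 3), BM against B at day 10 from 3586 down to 1894 to 2268 (without BM 2/3, B 2), BM against M at day 10 from 3688 down to 2064 to 2306 (without BM 2/3, M 1/2) and up to 5761 (without BM 1). RNA calls moved for the day difference of M from 139 down to 33 to 90 (without M day 10 1, WT day 10 1/3, M day 4 1/3, WT day 4 1/3), WT between days from 256 down to 139 to 165 (without WT day 10 3, WT day 4 1/3) and up to 431 (without WT day 10 2). TE calls moved for B at day 4 from 5 down to 0 to 2 (without B 2/3, WT 1/2/3), M at day 4 from 101 down to 42 to 64 (without M 1/2, WT 3), BM at day 4 from 235 down to 99 to 135 (without WT 2/3). TE calls moved for B at day 10 from 6 down to 0 to 3 (without B 2, WT 2/3) and up to 20 (without B 3), M at day 10 from 0 up to 131 (without M 3), BM at day 10 from 27 down to 6 to 13 (without BM 2/3, WT 1/2/3) and up to 2283 (without BM 1). Leaving out each mouse for the other bile acid genes, an alternative chosen after seeing the data, ended 23 of 70 RPF calls and turned 0.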
